A study of Mus musculus with 15 samples.

Results

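The transcripts of 9 genes that mature follicular B cells use were followed in the ileum of 15 mice: Ms4a1, Cd79b, Cr2, Fcer2a, Pax5, Blk, Cd22, Fcrla and Fam129c. They were taken by symbol from a table of 17752 genes, and all 9 were listed and passed the filter on low counts that left 14386 genes for testing. The animals were female C57BL/6 mice (C57BL/6JOlaHsd in the study's methods), 8 weeks old by the labels, in 3 groups of 5. The first group was gavaged with water, the second with a proanthocyanidin fraction labelled Low PAC, and the third with a fraction labelled high molecular weight PAC, which the study's methods call medium mDP PAC (mDP is the mean degree of polymerization). Both fractions came from grape pomace and were given at 200 mg/kg every 2 days over 10 days, and all 15 mice were healthy and ate the same purified control diet. RNA from ileum tissue of each mouse was sequenced as 1 library, a mixture of every cell type the tissue held, and the sources used here do not say how much ileum was taken or from where along it. Deposited counts summed to between 15963086 and 17903886 per mouse, with a median of 17521368.

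Proanthocyanidins are polymers of flavan-3-ols from plants that pass largely unabsorbed along the small intestine. Peyer's patches are lymphoid organs spaced along the ileum, in which B cells fill round follicles on a network of follicular dendritic cells under an epithelium with antigen-sampling M cells. Resting follicular B cells carry the B cell antigen receptor and its signalling chains, a set of co-receptors that raise or lower its signal, and the transcription factor that keeps their identity, while plasma cells, which are spread through the lamina propria between patches, have switched most of these genes off. Because a sample of ileum may or may not hold a patch, the level of follicular B cell transcripts in it can differ between animals.

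The 9 genes were high in 7 of the 15 mice and low in the other 8, with no mouse in between for most of them. For each gene the mice were ordered by log2(FPKM + 0.1), where FPKM is the number of sequenced fragments of a gene scaled to its transcript length and to the depth of the library, and parted at the widest gap between neighbours. A mouse was counted as high where at least 5 of the 9 genes put it above their gap. The 7 high mice were mice 1, 3 and 5 given water, mice 3 and 5 dosed with low mDP PAC, and mice 1 and 3 dosed with medium mDP PAC. High mice thus made up 3 of 5, 2 of 5 and 2 of 5 in the 3 groups, a spread of 1 mouse. The FPKM of the 9 genes summed to between 45.3 and 155 in these 7 mice and to between 4.38 and 6.92 in the other 8. The sources used here do not say whether a given sample held a Peyer's patch, so the parting is a property of the RNA, and in tissue RNA fewer cells of a type and less RNA per cell cannot be told apart.

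Ms4a1, which encodes the surface protein CD20, had the widest gap of the 9 genes on the log2(FPKM + 0.1) scale, 3.64. Its level was 11.3, 0.34, 19.6, 0.34 and 24.3 FPKM in mice 1 to 5 given water, 0.66, 0.42, 9.38, 0.13 and 14.5 FPKM in mice 1 to 5 dosed with low mDP PAC, and 38.9, 0.46, 44.6, 0.48 and 0.40 FPKM in mice 1 to 5 dosed with medium mDP PAC. The lowest of the 7 high mice stood 14.2-fold above the highest of the other 8, and no mouse lay between 0.66 and 9.38 FPKM. The 8 low mice rested on few reads, between 4 and 23 counts each, against 328 to 1521 counts in the 7.

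Cd79b encodes one of the signalling chains of the B cell receptor. Its level was 15.2, 2.64, 26.3, 2.35 and 30.7 FPKM in mice 1 to 5 given water, 2.68, 2.78, 13.5, 1.98 and 14.8 FPKM in mice 1 to 5 dosed with low mDP PAC, and 41, 2.19, 44.6, 2.45 and 2.61 FPKM in mice 1 to 5 dosed with medium mDP PAC. The same 7 mice were high, but the 8 low mice kept between 1.98 and 2.78 FPKM, from 37 to 58 counts, so that the lowest high mouse stood 4.85-fold above the highest low mouse.

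Cr2 and Fcer2a encode complement receptor CD21 and the low-affinity IgE receptor CD23, whose joint surface level is used to tell follicular from marginal zone B cells. For Cr2, the values were 2.56, 0, 5.63, 0.01 and 5.55 FPKM in mice 1 to 5 given water, 0.07, 0.06, 2.39, 0.05 and 3.16 FPKM in mice 1 to 5 dosed with low mDP PAC, and 9.1, 0.07, 6.71, 0.15 and 0.13 FPKM in mice 1 to 5 dosed with medium mDP PAC. The 0 in mouse 2 given water was a count of 0, which allows up to 0.0305 FPKM at the limit of 3 counts and covers counting error only. The step between low and high mice, 15.9-fold, was wider for Cr2 than for any other of the 9 genes. Fcer2a measured 6.34, 0.30, 12.4, 0.28 and 11.9 FPKM in mice 1 to 5 given water, 0.42, 0.17, 4.92, 0.35 and 6.04 FPKM in mice 1 to 5 dosed with low mDP PAC, and 19.1, 0.26, 14.7, 0.27 and 0.17 FPKM in mice 1 to 5 dosed with medium mDP PAC. Its step was 11.7-fold, again with the same 7 mice above it.

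Pax5 encodes the transcription factor that holds B cells to their lineage, and Blk encodes a Src family kinase that acts below the B cell receptor. Pax5 stood at 2.98, 0, 6.13, 0.05 and 7.31 FPKM in mice 1 to 5 given water, 0.30, 0.15, 2.25, 0.17 and 2.98 FPKM in mice 1 to 5 dosed with low mDP PAC, and 7.7, 0.05, 7.79, 0.20 and 0.30 FPKM in mice 1 to 5 dosed with medium mDP PAC. The 8 low mice held 0 to 6 counts of Pax5, and the count of 0 in mouse 2 given water allows up to 0.157 FPKM, so that levels among the low mice could not be ordered at this depth. Blk measured 2.6, 0.26, 4.18, 0.16 and 4.84 FPKM in mice 1 to 5 given water, 0.38, 0.28, 2.34, 0.10 and 2.74 FPKM in mice 1 to 5 dosed with low mDP PAC, and 6.87, 0.14, 7.09, 0.09 and 0.28 FPKM in mice 1 to 5 dosed with medium mDP PAC. The step was 7.50-fold for Pax5 and 6.16-fold for Blk.

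Cd22 encodes an inhibitory co-receptor that binds sialic acid and dampens receptor signals, and Fcrla encodes an intracellular Fc receptor-like protein of B cells. Cd22 was found at 6.97, 1.05, 10.5, 0.76 and 14.7 FPKM in mice 1 to 5 given water, 0.98, 0.67, 5.93, 1.17 and 6.72 FPKM in mice 1 to 5 dosed with low mDP PAC, and 18.2, 0.54, 13.7, 0.75 and 0.83 FPKM in mice 1 to 5 dosed with medium mDP PAC. Fcrla was found at 4.87, 1.05, 7.46, 1.03 and 9.52 FPKM in mice 1 to 5 given water, 1.12, 1.06, 4.04, 0.95 and 4.55 FPKM in mice 1 to 5 dosed with low mDP PAC, and 12.8, 0.43, 13.1, 0.67 and 0.82 FPKM in mice 1 to 5 dosed with medium mDP PAC. Both kept a measurable level in the 8 low mice, from 38 to 75 counts of Cd22 and 12 to 31 counts of Fcrla, and their steps were 5.07-fold and 3.61-fold.

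Fam129c, a B cell gene of the Niban family, was the exception. Its level was 0.83, 0.23, 1.12, 0.37 and 0.98 FPKM in mice 1 to 5 given water, 0.31, 0.16, 0.54, 0.44 and 0.69 FPKM in mice 1 to 5 dosed with low mDP PAC, and 1.32, 0.24, 0.92, 0.19 and 0.33 FPKM in mice 1 to 5 dosed with medium mDP PAC. The 7 highest mice were the same 7, but the lowest of them, mouse 3 dosed with low mDP PAC at 0.54 FPKM, stood only 1.23-fold above the highest low mouse, mouse 4 of that group at 0.44 FPKM. The widest gap of Fam129c lay just above mouse 3, at 0.30 on the log2 scale against 0.27 for the next widest, and so placed 6 mice above it. The other 8 genes each gave the same 7 mice by their own gap, with widest gaps from 1.76 to 3.64 on the log2 scale. Fam129c levels rested on 7 to 54 counts per mouse.

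**Figure D1:**
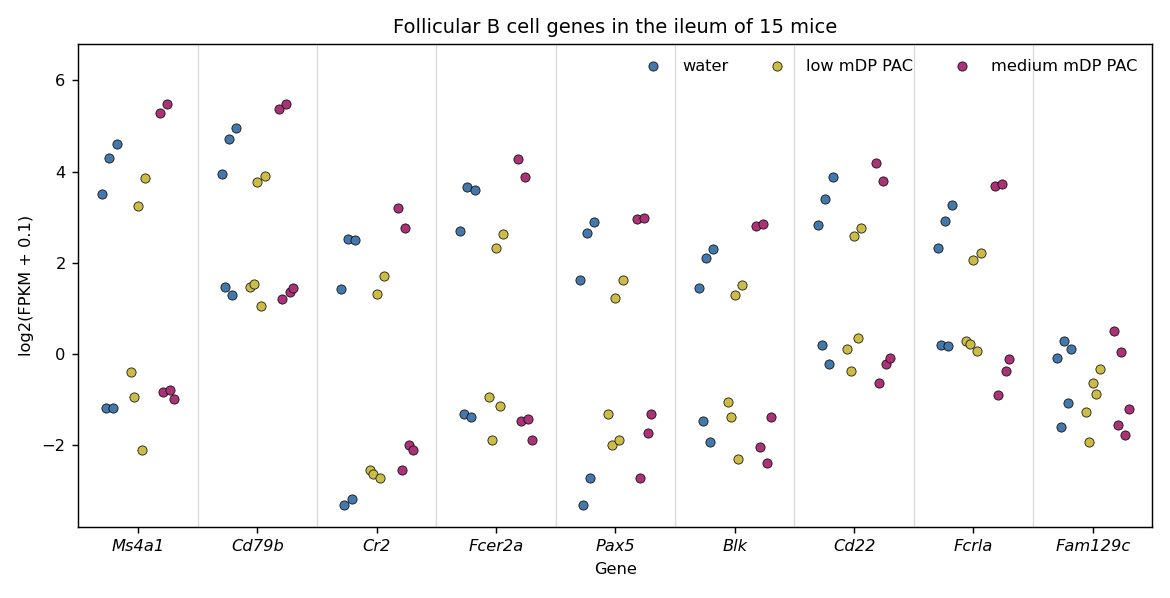
Level of each of the 9 genes (x axis) as log2(FPKM + 0.1) (y axis), with 1 point for each mouse, coloured by group. For 8 genes the points fall into an upper band of 7 mice and a lower band of 8 with empty space between them, each group has mice in both bands, and the bands of Fam129c touch.

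The 9 genes lie on 7 chromosomes. In the GENCODE annotation of GRCm38, the mouse build that mm10 also names, Ms4a1 lies on the minus strand of chromosome 19 (chr19:11249675-11266241) and Cd79b on the minus strand of chromosome 11 (chr11:106311341-106314762). Cr2 (chr1:195136811-195176716) and Fcrla (chr1:170917576-170927583) lie far apart on chromosome 1. Fcer2a (chr8:3681737-3694175) and Fam129c (chr8:71597648-71607936) lie far apart on chromosome 8. Pax5 (chr4:44524757-44710487), Blk (chr14:63372836-63417037) and Cd22 (chr7:30865402-30880342) each lie on a chromosome of their own. An exon of Fam129c overlaps one of Pgls on the same strand, and exons of Pax5 and Cd22 overlap antisense transcripts. The sources used here do not say whether counting used strand, so part of the counts of these 3 genes could belong to the overlapping genes.

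The sequence before the transcription starts of the 9 genes was read for letters that B cell factors bind. RefSeq windows on GRCm38 ran from 250 bases before to 50 bases after a start. They were at hand for 6 of the 9 genes, matched by gene identifier, with 8 windows in all because Fcer2a has 3. Searched on both strands, the E-box CAGGTG bound by E2A was present in 5 of the 8 windows, 1 each of Fcrla, Cr2, Cd22, Fcer2a and Fam129c, against 20.2% of 32851 windows of all genes. The Ets core GGAAGT bound by PU.1 was present in 2 of the 8 windows (Cr2 and Fcer2a), near its share of 23.8% over all windows, and the EBF1 core CCCNNGGG in 2 of the 8 (Cd22 and Fam129c), against 13.7%. The octamer ATGCAAAT was in none of the 8 windows, against 1.74% of windows. The window of Pax5 held none of the 4 sets of letters. A match describes these letters and is not a binding site, and its part in the levels of the genes was not tested. The 250 bases upstream of 3 starts are shown 5′ to 3′ on the gene's own strand, chosen because they hold an E-box or an Ets core in the genes with the widest steps among the 6 (Cr2 and Fcer2a) and in one with a narrower step (Fcrla). Capitals mark the matched letters, and ACTTCC and CACCTG are the same letters read on the other strand.
Cr2, GRCm38 chr1:195176720-195176969, minus strand: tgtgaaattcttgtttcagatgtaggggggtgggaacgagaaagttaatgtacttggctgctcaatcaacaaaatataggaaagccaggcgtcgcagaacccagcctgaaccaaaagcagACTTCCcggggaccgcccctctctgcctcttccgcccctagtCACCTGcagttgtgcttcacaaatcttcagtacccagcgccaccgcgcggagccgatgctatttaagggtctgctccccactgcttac
Fcer2a, GRCm38 chr8:3694175-3694424, minus strand: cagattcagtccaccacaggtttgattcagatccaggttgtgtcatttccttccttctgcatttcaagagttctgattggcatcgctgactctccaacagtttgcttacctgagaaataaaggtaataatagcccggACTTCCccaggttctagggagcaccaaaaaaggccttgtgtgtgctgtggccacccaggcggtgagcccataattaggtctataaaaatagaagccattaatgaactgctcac
Fcrla, GRCm38 chr1:170927584-170927833, minus strand: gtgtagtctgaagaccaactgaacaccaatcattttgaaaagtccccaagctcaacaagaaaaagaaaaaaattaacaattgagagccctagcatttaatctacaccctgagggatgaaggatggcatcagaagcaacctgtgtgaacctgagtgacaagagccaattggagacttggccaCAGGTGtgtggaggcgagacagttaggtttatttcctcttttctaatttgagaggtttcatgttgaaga
Counted from the start, with negative numbers upstream, the Ets core of Cr2 begins at base -130 and its E-box at base -88. The Ets core of Fcer2a begins at base -113, and the E-boxes of that gene are in the window of another start. The E-box of Fcrla begins at base -69.

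Among the genes tested, the 9 were some of the most variable between mice, and little of that spread lay between treatments. The SD of log2(FPKM + 0.1) over the 15 mice was 2.86 for Ms4a1, which ranked 6 of 14386 genes, and 0.81 for Fam129c, which ranked 342, against a median of 0.20 over all genes. Cr2, Fcer2a and Pax5 ranked 9, 10 and 12. The 9 genes were chosen with earlier results of these data known, so their ranks are a description and not an independent result. The share of the variance that lay between the 3 groups was 1.59% for Pax5 to 8.17% for Fam129c, against a median of 16.2% over all genes. The spread of these genes was therefore mostly a spread between animals of the same treatment.

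The first comparison asked whether medium mDP PAC changed the level of follicular B cell transcripts. None of the 9 genes passed the test: edgeR's quasi-likelihood test called 0 of 9 at an adjusted p of 0.05, against 0.0139% of all genes tested, with adjusted p from 0.761 to 0.996 (Benjamini-Hochberg). At an unadjusted p of 0.05 it also called 0 of 9, against 14.8% of all genes, and limma on log2 FPKM called 0 of 9 while DESeq2 gave the 9 genes no adjusted p and 0 unadjusted p under 0.05. Ms4a1 averaged 17.0 ± 22.7 FPKM (SD, n = 5) with medium mDP PAC and 11.2 ± 10.9 FPKM (SD, n = 5) with water, a log2 fold change of 0.48 ± 1.32 (SE). Cd79b averaged 18.6 ± 22.2 FPKM (SD, n = 5) against 15.4 ± 13.1 FPKM (SD, n = 5). The SD was as large as the mean or close to it in both groups.

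Which of these groups appeared higher depended on the summary. The mean FPKM was higher with medium mDP PAC for 7 of the 9 genes, and mice 1 and 3 of that group held the highest summed levels of the 15, 155 and 153 FPKM. The median FPKM was lower for 9 of 9, where 3 of 5 mice of that group and 2 of 5 given water were low. For Ms4a1 the median was 0.48 FPKM with medium mDP PAC and 11.3 FPKM with water. The log2 fold changes from edgeR ran from -0.36 (Fam129c) to 0.48 (Ms4a1), with 6 genes higher, 3 lower and a median of 0.09, while 49.5% of all genes tested were lower, with a median of 0.00. In limma, which averages log values, all 9 were lower, with a median of -0.38 at a pseudocount of 0.1 and -0.21 at 1. The mean log2 difference was -0.13 for Cr2 and -0.19 for Pax5 at a pseudocount of 0.1, and it reversed to 0.55 and 0.31 at 0.01. The median from edgeR also turned to -0.21 without mouse 2 or mouse 4 given water, and to -0.75 and -0.46 without mouse 1 or mouse 3 dosed with medium mDP PAC. The exact two-sided permutation test on log2(FPKM + 0.1) gave p from 0.611 to 1 for single genes, where 5 against 5 mice allow a smallest p of 0.00794. The groups overlapped for all 9 genes, while 4.64% of all genes did not overlap.

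Low mDP PAC was compared with water for the same question. All 9 log2 fold changes were below 0, from -1.53 (Pax5) to -0.78 (Fam129c) with a median of -1.18, and 54.5% of all genes tested were below 0, with a median of -0.01. None passed the test: edgeR called 0 of 9, against 0% of all genes, with an adjusted p of 0.976 for each, and DESeq2 and limma also called 0. At an unadjusted p of 0.05 edgeR called 0 of 9, against 3.61% of all genes, with p from 0.170 to 0.390, and the exact permutation p ran from 0.262 to 0.722. Ms4a1 averaged 5.01 ± 6.57 FPKM (SD, n = 5) with low mDP PAC against 11.2 ± 10.9 FPKM with water, and its log2 fold change of -1.21 had an SE of 1.37. Mice of both groups were found above and below every gap, and 0 of 9 genes were free of overlap, against 0.605% of all genes. The 9 directions are not 9 separate observations, since the same mice set all of them.

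The fractions themselves, which differ in mean degree of polymerization and were given at the same dose and times, were compared last. All 9 genes had log2 fold changes above 0 for medium against low mDP PAC, from 0.42 (Fam129c) to 1.69 (Ms4a1) with a median of 1.31, so that 0 of 9 were lower against 48.6% of all genes tested, whose median was 0.00. None passed the test (0 of 9 by edgeR, against 0% of all genes, adjusted p from 0.896 to 0.919), and DESeq2 and limma called 0 as well. Unadjusted, edgeR called 0 of 9 at 0.05, against 3.89% of all genes, and exact permutation p ran from 0.540 to 0.802. The mean was higher with medium mDP PAC for 9 of 9 genes, while the median was lower for 7, equal for 1 and higher for 1, Cr2 at 0.15 against 0.07 FPKM. The number of high mice was 2 of 5 in both groups, and 0 of 9 genes were free of overlap, against 0.737% of all genes. This comparison shares its mice with the other 2, so the 3 sets of values are not independent. In each of the 3 comparisons the SE of the log2 fold change, 0.53 to 1.42 over the 9 genes, leaves room for sizeable differences in either direction, and the 9 genes are not shown to be alike between groups.

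**Figure D2:**
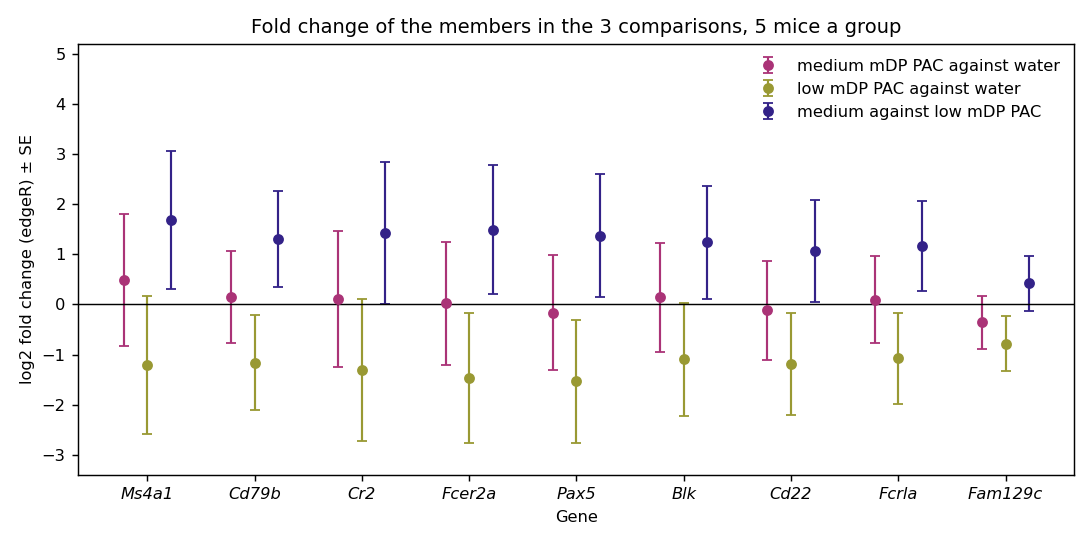
Log2 fold change with its SE from edgeR (y axis) for each of the 9 genes (x axis) in the 3 comparisons, 5 mice in each group. Values against water centre near 0 for medium mDP PAC and near -1.18 for low mDP PAC, and the error bars reach from 0.53 to 1.42 to each side.

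Within the 7 high mice the order was held in part from gene to gene. Mouse 3 dosed with low mDP PAC was the lowest of the 7 for 9 of 9 genes. Mouse 1 dosed with medium mDP PAC was the highest or next highest for 9 of 9 and mouse 3 of that group for 7 of 9. The places between were not fixed: mouse 1 given water was below mouse 5 dosed with low mDP PAC for Ms4a1 (11.3 and 14.5 FPKM) and above it for Fcer2a (6.34 and 6.04 FPKM). The summed level was 53.7, 93.4 and 110 FPKM in mice 1, 3 and 5 given water, 45.3 and 56.1 FPKM in mice 3 and 5 dosed with low mDP PAC, and 155 and 153 FPKM in mice 1 and 3 dosed with medium mDP PAC. These mice were singled out by the level itself, so the values are a description and no test was made between them. The sum of FPKM over all genes was 677075 in mouse 3 dosed with medium mDP PAC and at most 573980 in the other 14, and the part of this in its level was not tested.

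The high mice also fell unevenly over the mouse numbers. The mouse numbered 3 was high in 3 of 3 groups, those numbered 1 and 5 in 2 of 3 each, and those numbered 2 and 4 in 0 of 3. The labels do not say whether a number marks a cage, a day or an order of dissection, and no test was made.

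The level of each gene was also divided by that of Ms4a1 in the same mouse. In the 7 high mice the ratio of Cd79b to Ms4a1 in FPKM stayed between 1.00 and 1.44, and in the other 8 it was between 4.06 and 15.2. Cd22 went from 0.306 to 0.632 in the 7 to between 1.17 and 9.0 in the 8. Fcrla went from 0.293 to 0.431 to between 0.935 and 7.31. These ratios restate the narrower steps of the 3 genes beside the 14.2-fold step of Ms4a1, in mice that these same genes set apart, and are a description. For Cr2 the ratio was 0.150 to 0.287 in the 7 and 0 to 0.385 in the 8, and for Fcer2a it was 0.329 to 0.634 and 0.405 to 2.69, with overlap in both. Ratios in the low mice carry the counting error of at most 23 counts of Ms4a1.

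Among the high mice, most ratios varied less than the levels of the genes in them. Ms4a1 varied 4.76-fold over the 7 mice, and the ratio to it varied 1.44-fold for Cd79b (level 3.31-fold), 1.47-fold for Fcrla (level 3.23-fold), 1.57-fold for Blk (level 3.03-fold) and 1.79-fold for Pax5 (level 3.46-fold). Fam129c went the other way, with a ratio that varied 3.57-fold and a level that varied 2.44-fold. The 2 high mice dosed with medium mDP PAC had ratios below those of the 3 high mice given water for Cd79b (1.00 and 1.06 against 1.26 to 1.35), Pax5 (0.174 and 0.198 against 0.264 to 0.312) and Blk (0.159 and 0.177 against 0.199 to 0.230). The same held for Cd22, Fcrla and Fam129c but not for Cr2 and Fcer2a. The high mice of the low mDP PAC group lay across both ranges for Cd79b, at 1.02 and 1.44. All of these ratios share Ms4a1 as their denominator. It was at 38.9 and 44.6 FPKM in the 2 high mice dosed with medium mDP PAC. In the 3 high mice given water it was at 11.3 to 24.3 FPKM. The ratios are therefore not separate observations, and with 2 or 3 mice each they are values and not a comparison of treatments.

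**Figure D3:**
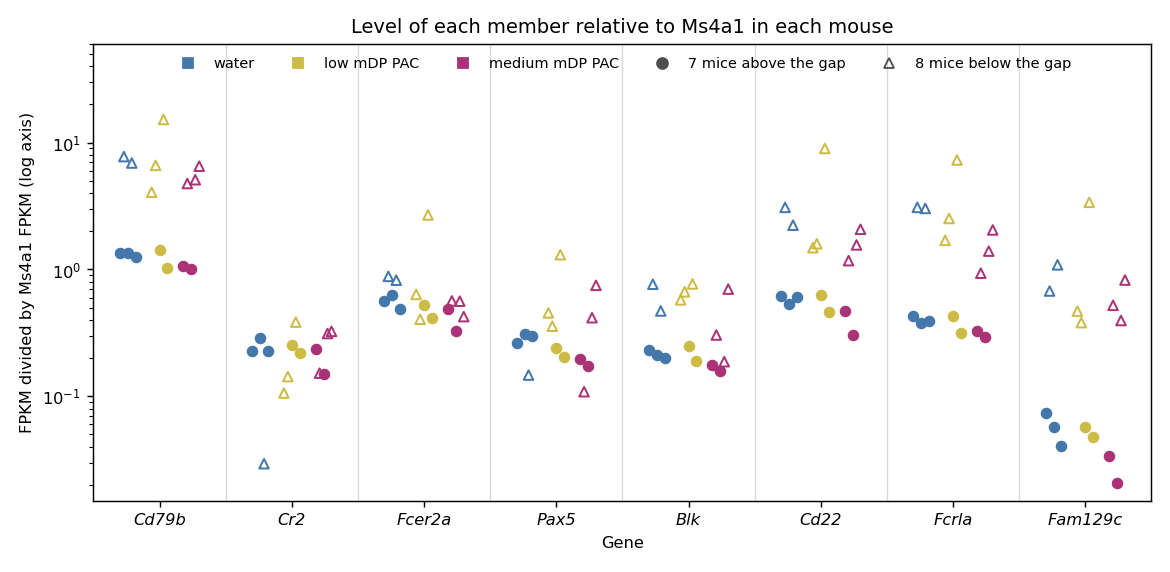
FPKM of each gene divided by the FPKM of Ms4a1 in the same mouse (y axis, log scale) for the other 8 genes (x axis), with filled circles for the 7 high mice, open triangles for the 8 low mice and colours for the groups. The filled circles of Cd79b lie between 1.00 and 1.44 with the open triangles above 4.06, and ratios of 0 (Cr2 and Pax5 in mouse 2 given water) cannot be drawn on this axis.

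The identity of the signal was checked against defining markers of B cells, follicular dendritic cells and M cells. Cd79a, the partner chain of Cd79b, was at 24.3 to 81.9 FPKM in the 7 high mice and 2.33 to 4.32 FPKM in the other 8. Cxcl13, the chemokine with which follicular dendritic cells draw B cells into follicles, was at 16.4 to 53.2 and 3.24 to 5.59 FPKM. Gp2, a receptor on M cells over Peyer's patches, was at 0.87 to 3.18 and 0.12 to 0.53 FPKM. All 3 had the same 7 mice highest, a pattern found in 402 of 14386 genes, or 2.79%. The 7 mice were set by the 9 genes alone, but the markers were chosen with earlier results of these data known, so their pattern is a description and not independent support. Cxcl13 and Gp2 did not stand for the whole of their lists, in which 4 of 9 genes of follicular dendritic cells and 1 of 9 of M cells and follicle epithelium had these mice highest.

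**Figure D4:**
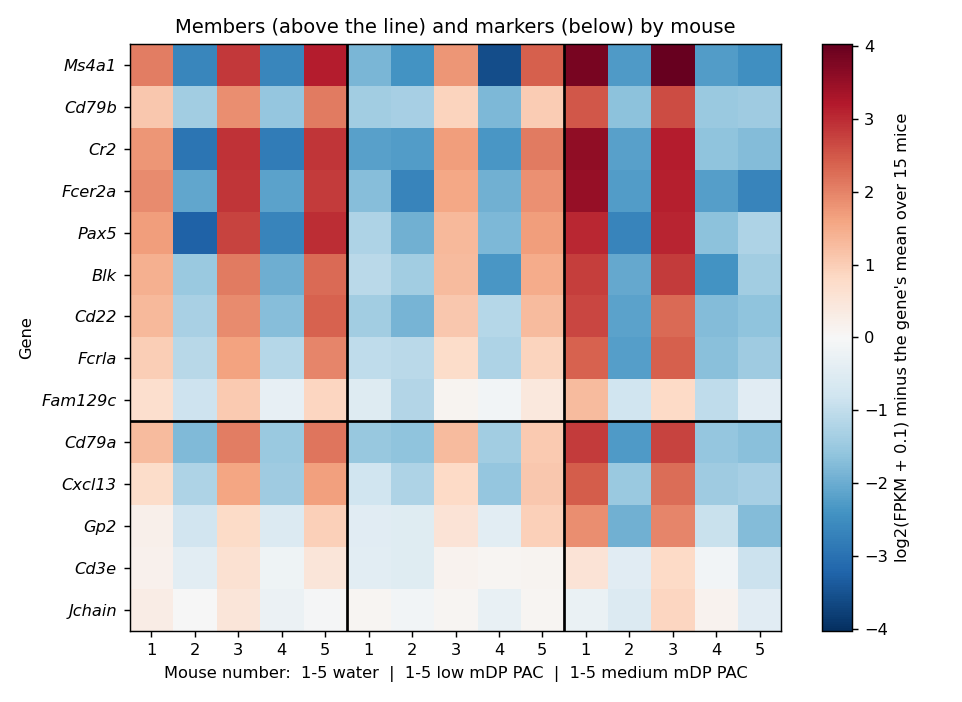
Log2(FPKM + 0.1) minus the gene's mean over 15 mice (colour) for the 9 genes and 5 markers (rows) in each mouse (columns, by group and mouse number). The same 7 columns are red for the 9 genes and for Cd79a, Cxcl13 and Gp2, weakly so for Cd3e, and not for Jchain. For Cd3e, mouse 4 dosed with low mDP PAC, a low mouse, is nearly level with mouse 5 of that group (7.07 and 7.11 FPKM).

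Genes that work with the 9 in B cells followed the same mice to different degrees. Of 19 other B cell surface receptors, 16 had the same 7 mice highest, and of 24 genes of B cell receptor signalling 14 did. The 3 most abundant surface receptors on that list were the exceptions: Cd74, the invariant chain of MHC class II, was at 770 to 1363 FPKM in the 7 and 388 to 816 FPKM in the 8, Cd24a at 145 to 312 and 178 to 222 FPKM, and Cd38 at 31.1 to 53.0 and 31.8 to 67.3 FPKM. In the signalling list, Cd79a followed the 7 mice, while Cd81 (61.0 to 81.2 against 58.1 to 74.8 FPKM) and Lyn (16.4 to 25.9 against 14.8 to 17.8 FPKM) overlapped. Of 14 transcription factors of B cells 10 followed the 7 mice, among them Foxo1 (13.4 to 17.0 against 11.2 to 13.2 FPKM), and Irf8 (29.1 to 44.6 against 26 to 36.5) and Tcf3 (14.2 to 19.7 against 13.8 to 20.5) overlapped.

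Other cells of the follicle moved in part. Of 10 genes of germinal centre B cells 6 had the same 7 mice highest, and the 3 most abundant were Fas (7.33 to 14.2 FPKM in the 7, 7.13 to 10.6 in the 8), Rgs13 (4.27 to 16.5 and 4.70 to 8.13) and Basp1 (5.59 to 14.4 and 3.98 to 5.07). Of 9 genes of follicular dendritic cells 4 did: Cxcl13, Mfge8 (47.9 to 117 and 20.6 to 28.8 FPKM), and, named after their values were seen, Clu (46.7 to 111 and 9.69 to 16.2) and Madcam1 (4.5 to 17.7 and 1.82 to 2.79). Tnfrsf1a (51.5 to 69.9 and 59.4 to 65.8) and Ltbr (42.8 to 54.0 and 42.0 to 52.8), which many cell types express, did not. Of 9 genes of M cells and follicle epithelium only Gp2 did, and Pglyrp1, Marcksl1 and Anxa5, the most abundant of that list, overlapped.

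T cell genes followed the same mice with a smaller step. Of 15, 11 had the same 7 mice highest, and Cd3e, a chain of the T cell receptor complex, was at 7.11 to 11.6 FPKM in the 7 and 3.59 to 7.07 FPKM in the 8. Cd3g (9.63 to 19.8 and 6.42 to 8.91 FPKM) and Tcf7 (7.21 to 13.8 and 3.47 to 4.84 FPKM), the other most abundant genes of the list, also did. The summed level of the 15 genes was 58.4 to 106 FPKM in the 7 and 33.0 to 47.4 FPKM in the 8.

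Genes of plasma cells, macrophages, enterocytes and smooth muscle mostly did not follow. Of 9 plasma cell genes 1 did (Mzb1, named after its values were seen, at 6.85 to 19.9 and 2.67 to 5.73 FPKM), while Jchain, the joining chain of secreted IgA and IgM, was at 293 to 643 and 244 to 387 FPKM, and Xbp1 and Sdc1 overlapped too. Of 10 macrophage genes 1 did, Lyz2 (67.6 to 173 and 44.5 to 63.8 FPKM), and C1qa and C1qb overlapped. None of 10 enterocyte genes, with Fabp2, Apoa1 and Krt8 the most abundant, and none of 8 smooth muscle genes did. Smooth muscle was low in mice 1 and 3 given water, both of them high for the 9 genes, with Acta2 at 89.9 and 75.5 FPKM against 145 to 276 FPKM in the other 13 mice. Its part in the level of the 9 genes was not tested.

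**Figure D5:**
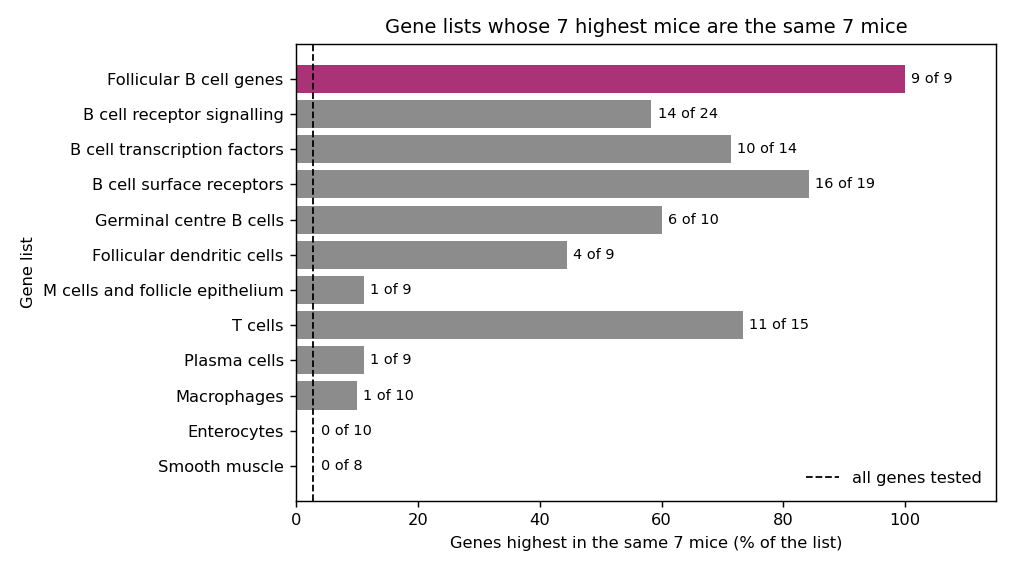
Share of each gene list (x axis, percent of the genes tested) whose 7 highest mice were the 7 high mice, with the counts beside the bars and the share over all genes tested, 2.79%, as a dashed line. The 9 follicular B cell genes, which set these mice, are in colour, the other B cell lists range from 14 of 24 to 16 of 19, T cells stand at 11 of 15, and enterocytes and smooth muscle at 0.

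Between treatments, 0 of the 137 genes on these other lists passed edgeR's test in either direction in any of the 3 comparisons. In medium mDP PAC against water 11 of the 137 had an unadjusted p under 0.05, against 14.8% of all genes. DESeq2 called Apoa1 and Krt20, both of the enterocyte list, among the 167 genes it called in all, and limma called 0 of the 137. In low mDP PAC against water the 3 with an unadjusted p under 0.05 of the 137 were Apoa1, Prdm1 and Tnfrsf1a, against 3.61% of all genes, and in medium against low mDP PAC the 2 of 137 were Cx3cr1 and Tnfrsf11a, against 3.89%, all named after their values were seen. DESeq2 and limma called 0 of the 137 in these comparisons. Cxcl13 had a log2 fold change of 0.27 ± 0.84 (SE) for medium mDP PAC against water and -0.79 ± 0.86 (SE) for low mDP PAC against water, beside medians of 0.09 and -1.18 for the 9 genes.

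The genes most like the 9 were sought over all 12421 others with a mean of at least 1 FPKM, by the mean absolute difference between each gene's centred log2(FPKM + 0.1) profile over the 15 mice and the mean profile of the 9. The 10 nearest included Chst3, H2-Ob, Cd79a, H2-Eb2, Tnfrsf13c, Siglecg, Bank1, Cxcr5 and Fcamr, at 0.177 to 0.328 on the log2 scale, against a median of 1.89 over the genes compared. Of the 9 genes themselves, Cd22 lay at 0.197 and Blk at 0.207 from their mean profile, and Fam129c at 1.2. Tnfrsf13c encodes the BAFF receptor, which B cells need to survive, and was at 6.00 to 18.5 FPKM in the 7 high mice and 0.34 to 0.52 FPKM in the other 8. Cxcr5 encodes the receptor for Cxcl13 and was at 3.12 to 10.5 and 0.07 to 0.27 FPKM. H2-Ob, at 6.70 to 23.0 and 0.73 to 1.34 FPKM, encodes a chain of the MHC class II chaperone of B cells, and Chst3, a chondroitin sulfotransferase, was at 2.31 to 7.76 and 0.12 to 0.27 FPKM. The 10 genes were picked for this likeness, so their parting over the same mice follows from the choice and is a description. With a pseudocount of 1 in place of 0.1, 6 of the 10 remained among the nearest.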

How the data were processed

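RNA from ileum tissue of each of 15 mice was sequenced by the authors as paired reads on a BGISEQ platform, filtered with SOAPnuke and aligned to mm10 with Bowtie2 by the study's methods (the submitters' processing notes name HISAT, DESeq2 and mm10). The tool that gave the expected counts, and whether it used strand, are not given in the sources used here. The authors deposited 1 file per mouse with expected counts (88.6% to 89.5% of them whole) and FPKM for each gene. Levels are the deposited FPKM values. Expected counts were rounded and tested in edgeR 4.0.16 (TMM, filterByExpr, quasi-likelihood test, all 15 mice in 1 model, Benjamini-Hochberg over 14386 genes), after the script was tested on simulated data. Single levels were tested by exact permutation over 252 splits on log2(FPKM + 0.1). A gap had at least 2 mice on each side. DESeq2 1.42.0, limma 3.58.1, other scalings, filters and pseudocounts, a replicate block and leaving out each mouse were the alternatives. Named were the 9 genes, the 3 most abundant of each other list, defining markers and the nearest profiles, of which some are not reported here. The 9 genes and the lists were chosen with earlier results of these data known. Promoters were read from RefSeq. Intervals and limits from counts cover counting error only.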

Additional observations from a re-analysis of the deposited data

How the results depend on the processing

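None of the 9 genes was called in any comparison under any alternative (22 alternatives with an adjusted p for medium mDP PAC against water and 23 for each of the others), and the lowest adjusted p of any gene was 0.446, 0.836 and 0.674 in the 3 comparisons. Groups overlapped for all 9 genes under every alternative. Leaving out each mouse in turn moved the median log2 fold change from -0.75 to 0.46 for medium mDP PAC against water, from -1.67 to -0.75 for low mDP PAC against water and from 0.64 to 1.81 for medium against low mDP PAC. In the first of these the direction of single genes turned when 1 mouse was left out, with ranges of -0.23 to 0.94 for Ms4a1, -0.43 to 0.51 for Cd79b, -0.75 to 0.57 for Cr2, -0.81 to 0.45 for Fcer2a, -0.77 to 0.32 for Pax5, -0.46 to 0.53 for Blk, -0.89 to 0.34 for Cd22 and -0.46 to 0.46 for Fcrla, and for medium against low mDP PAC Fam129c ranged from -0.0769 to 0.66. The number of high mice was 3, 2 and 2 with pseudocounts of 1 and 0.01, with TMM-scaled CPM and with a limit of 1 FPKM of Ms4a1. It fell to 1 for low mDP PAC where all 9 genes had to place a mouse above the gap, since Fam129c left mouse 3 below. Leaving out a mouse gave 2 to 3 high mice given water, 1 to 2 with low and 1 to 2 with medium mDP PAC, as the mouse left out was itself high or not. With a pseudocount of 0.01 the mean log2 difference between medium mDP PAC and water reversed from -0.13 to 0.55 for Cr2 and from -0.19 to 0.31 for Pax5.

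With the mouse number as a replicate block the direction for medium mDP PAC against water turned for Fcer2a (-0.0342), Blk (-0.0584) and Fcrla (-0.202), and no gene was called. Mice with the same number did not deviate together in every pair (r from -0.224 to 0.411, -0.296 to 0.431 and -0.293 to 0.0098 in the 3 comparisons, over all genes), so the numbers were not taken to pair them, and at most 2 of 5 mice per comparison correlated best with their own number. Pax5 failed the filter where only the low and medium mDP PAC groups were fitted. Depth limits the low mice most, where Pax5 had 0 to 6 counts and Ms4a1 4 to 23.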
